A study of Mus musculus with 58 samples.

Results

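The 10 tumors with the highest and the 10 with the lowest expression of mitotic marker genes were compared, out of 29 liver tumors in a series of 58 arrays. The groups were chosen by measured values, the mean log2 value of Mki67, Top2a, Cdk1 and Bub1 in each tumor. The rule names 5 markers, but for Ccnb1 no probe cluster carrying that symbol alone was found in the platform annotation used here, so 4 were averaged. The 10 highest are called fast tumors and the 10 lowest slow tumors, by their marker level alone, since no rate of division was measured. The 9 tumors between them are called middle tumors.

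All mice were of a mixed FVB/NJ, C57BL/6 and 129/Sv background and received adeno-associated virus (AAV), a gene delivery vector, as neonates, and liver was taken in adulthood. The series addresses whether vector insertion contributes to hepatocellular carcinoma, and it pairs tumors with livers labelled normal, which come from injected mice as well. Vector, dose, treatment age in days and age at sampling are not stated in the labels used here. The title of normal liver 4, from the same animal as fast tumor 4, carries GFP without saying what it refers to. Some titles carry the genotype marks +/- or -/- without naming a gene. Of the fast tumors 3 carried +/-, 1 carried -/- and 6 no mark, and of the slow tumors 2 carried -/- and 8 no mark. Of the 6 fast tumors without a mark, 2 came from animals marked -/- on another array, tumor 19 by its normal liver and tumor 26 by tumor 22. By the identifiers in their titles the fast tumors came from 9 animals, because tumors 22 and 26 share an animal, and the slow tumors from 10. Fast tumors 4 and 29, both marked +/-, have identifiers that differ only in the order of digits and were counted as separate animals. The fast group was labelled male in 8 and female in 2 cases, and the slow group male in 4, female in 5 and without a label in 1. The level of Xist, the transcript of the inactive X chromosome, went against the gender label in 1 fast tumor and 2 slow tumors. Xist was high in 3 fast and 4 slow tumors. Nothing in the labels describes tumor stage, size or number of lesions.

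A dividing cell copies its DNA in S phase and separates the chromosomes in mitosis, and the genes of each step are transcribed in waves. In a resting cell the DREAM complex holds many of them down, and it reaches promoters of mitotic genes through an element with the core TTTGAA, while the factor NF-Y binds CCAAT boxes that are frequent there. Adult hepatocytes rarely divide, so transcripts such as Mki67, a protein coating mitotic chromosomes, and Top2a, the topoisomerase that untangles sister DNA, are usually low in liver and higher in growing tumors.

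The stretches upstream of the start site show where these letters fall in markers that ranked the tumors and in Ulbp1 and Neurl1b, the 2 genes outside the cell cycle whose difference between fast and slow tumors had the smallest p-values. They are RefSeq sequences of the mouse assembly GRCm38.p6, read 5′ to 3′ on the strand of the gene. Capitals mark CCAAT and TTTGAA, or ATTGG and TTCAAA where the match lies on the other strand. Windows of 250 bases before the start site were searched. Only bases outside the annotated gene are shown, which leaves 240 bases for Top2a and 86 for Ulbp1. The stretches lie at chr10:69352913-69353162 on the minus strand for Cdk1, chr11:99024200-99024439 on the minus strand for Top2a, chr10:7473642-7473727 on the minus strand for Ulbp1 and chr17:26414609-26414858 on the plus strand for Neurl1b.
Cdk1: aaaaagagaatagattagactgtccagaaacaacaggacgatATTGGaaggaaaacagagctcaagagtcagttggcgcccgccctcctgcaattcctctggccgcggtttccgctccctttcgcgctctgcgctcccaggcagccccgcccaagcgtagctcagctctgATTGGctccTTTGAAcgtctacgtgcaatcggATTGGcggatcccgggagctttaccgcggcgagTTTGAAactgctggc
Top2a: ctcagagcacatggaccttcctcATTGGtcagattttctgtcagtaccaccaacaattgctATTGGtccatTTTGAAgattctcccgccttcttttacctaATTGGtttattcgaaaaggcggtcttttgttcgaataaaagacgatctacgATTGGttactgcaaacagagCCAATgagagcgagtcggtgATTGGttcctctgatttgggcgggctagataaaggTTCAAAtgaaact
Ulbp1: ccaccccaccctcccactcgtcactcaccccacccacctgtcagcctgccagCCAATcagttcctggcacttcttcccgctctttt
Neurl1b: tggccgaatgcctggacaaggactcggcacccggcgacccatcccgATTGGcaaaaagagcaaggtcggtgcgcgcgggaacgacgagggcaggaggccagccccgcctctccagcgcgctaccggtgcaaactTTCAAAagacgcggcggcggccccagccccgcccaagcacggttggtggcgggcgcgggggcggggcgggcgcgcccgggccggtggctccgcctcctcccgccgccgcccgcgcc
The window of Cdk1, the kinase that starts mitosis, held 3 CCAAT and 2 TTTGAA matches, and that of Top2a held 6 and 2. Mki67 had 3 and 2, while Bub1 and Ccnb1 had 2 CCAAT matches each and no TTTGAA match. The Ulbp1 window held 1 CCAAT match and no TTTGAA, and the Neurl1b window 1 of each. That of Wnt4, described further on, held neither. Of all 32851 promoter windows of this length, 33.85% held CCAAT, 15.99% held TTTGAA and 5.55% held both. A match is a stretch of letters and was not tested as a binding site.

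Marker levels placed the groups as the ranking requires, and these values are a description. The score, the mean log2 value of the 4 markers, ran from 8.39 to 9.42 in the fast tumors with a median of 8.85, and from 6.77 to 7.66 in the slow tumors with a median of 7.33. The limits fell within a continuous series. The lowest fast tumor and the highest middle tumor both stood at 8.39, and the lowest middle tumor stood at 7.69 against 7.66 in the highest slow tumor. The 29 normal livers ranged from 6.40 to 8.27, so every fast tumor was above and every slow tumor below the highest normal liver. The slow tumors averaged 7.28 ± 0.30 (SD, n = 10) and the normal livers 7.05 ± 0.43 (SD, n = 29).

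**Figure D1:**
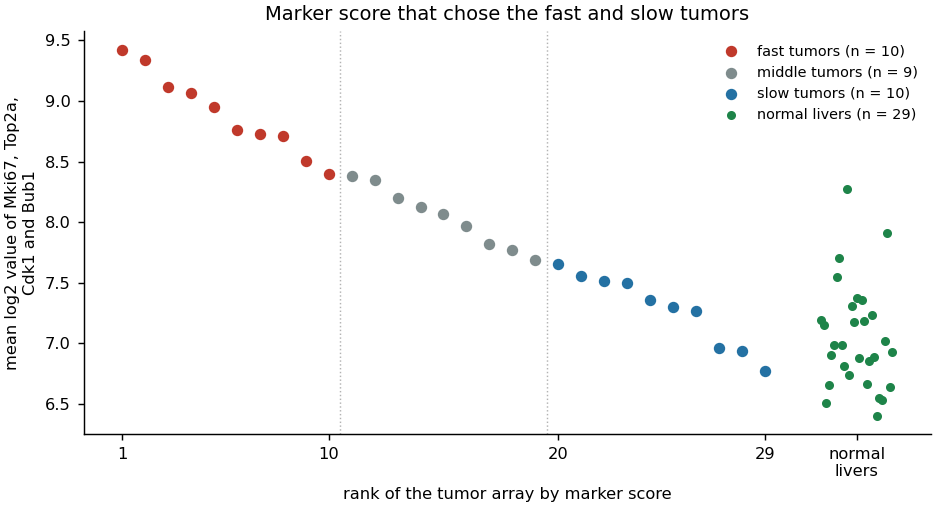
Marker score (mean log2 value of Mki67, Top2a, Cdk1 and Bub1, y axis) of each tumor array in rank order, with the 29 normal livers at the right; dotted lines mark the group limits. The score falls from 9.42 to 6.77 without a gap, and the slow tumors lie in the range of the normal livers, 6.40 to 8.27.

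Mki67 ranged from 9.40 to 10.89 in the fast tumors with a median of 10.03, and from 7.36 to 8.98 in the slow tumors with a median of 8.25. Its mean difference was 1.87 on the log2 scale, and the normal livers averaged 8.05. Top2a ranged from 7.57 to 9.24 (median 8.50) in fast and from 6.09 to 7.12 (median 6.70) in slow tumors. Its slow mean of 6.63 lay next to the normal mean of 6.62. Cdk1 ranged from 9.56 to 10.67 (median 10.12) in fast and from 6.99 to 9.40 (median 8.60) in slow tumors, and from 6.65 to 9.14 in normal livers. Bub1, a kinase of the spindle checkpoint, ranged from 6.44 to 7.58 in fast and from 5.56 to 6.07 in slow tumors, a mean difference of 1.06. For none of the 4 did the fast and slow ranges overlap.

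The score was also compared in normal livers of the same animals. It was 6.95 ± 0.35 (SD, n = 6) in normal livers of animals with a fast tumor and 6.81 ± 0.46 (SD, n = 7) in those of animals with a slow tumor, a difference of 0.13 (exact two-sided permutation p = 0.568). All 6 fast tumors with a partner exceeded it, by 1.21 to 2.44. Of the 7 slow tumors with a partner, 6 exceeded it, and the differences ran from -0.44 to 1.15.

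Tumor 9, a fast tumor, stood apart from every other array. Its mean correlation with the other arrays was 0.873, and its mean over 11 hepatocyte markers was 7.38, against 11.17 to 12.16 in the other 28 tumors. Markers of T and natural killer cells averaged 9.23 and those of B and plasma cells 11.20 in it, against at most 7.58 and 9.01 in the other tumors. Defining hepatocyte markers were high in the other fast and slow tumors, as the liver label requires. Counts and medians of gene lists are therefore given with and without tumor 9. Array medians ranged from 6.72 to 7.00 in fast and from 6.75 to 7.05 in slow tumors.

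Cell cycle genes as a whole followed the 4 markers. Of 464 measured genes on the cell cycle list, 406 were higher on average in the fast tumors, 52 by at least 1 on the log2 scale, and the median difference was 0.346. In 65 of them the fast range lay wholly above the slow range, as it did in 0.0138% of genes off the list. These genes move with the markers that ranked the tumors, so neither count is a test. Relative to normal liver the list's median was 0.489 in fast and 0.086 in slow tumors.

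Among the 8 roles described, those of mitosis had the largest medians. The tumors were ranked by mitotic marker genes, so this order is not a test. Among 15 genes of the spindle checkpoint and mitotic kinases the median difference was 0.949 and 9 did not overlap. Plk1, the kinase that drives entry into and progress through mitosis, had means of 9.01 ± 0.39 and 7.37 ± 0.35 (SD, n = 10 each). Aurkb, the kinase of the chromosomal passenger complex, had 8.60 ± 0.40 and 7.33 ± 0.30 (SD, n = 10 each). Among 20 kinesins and spindle proteins the median was 0.956 and 11 did not overlap. Kif11, the motor that pushes spindle poles apart, differed by 1.47, and Prc1, a bundler of midzone microtubules, by 1.76. Among 20 kinetochore and centromere genes 9 did not overlap and the median was 0.627. Ndc80, which couples kinetochores to microtubules, differed by 1.57, whereas Cenpm differed by -0.46.

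Genes of DNA replication were less far apart in these values. The median was 0.408 over 19 licensing genes, of which 3 did not overlap, and 0.464 over 20 DNA synthesis genes, of which 1 did not. Mcm5, a subunit of the replicative helicase, ranged from 8.25 to 10.33 in fast and from 7.45 to 7.90 in slow tumors. Mcm2, of the same helicase, ranged from 8.08 to 9.45 and from 7.60 to 8.89, so its ranges overlapped. Rrm2, the regulated subunit of ribonucleotide reductase, differed by 1.23 and Pcna, the polymerase clamp, by 0.54, both with overlap.

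Cyclins differed by type. Ccna2 and Ccnb2, cyclins of S phase and mitosis, were 1.53 and 1.30 higher in fast tumors without overlap. Ccne1, of the G1 to S transition, differed by 0.24. Ccnd1, the growth factor-responsive cyclin of G1, averaged 9.41 ± 0.77 in fast and 8.62 ± 0.34 in slow tumors (SD, n = 10 each), and both were below the normal mean of 10.26. Of the 8 inhibitors of cyclin-dependent kinases 4 were above 0, with a median of 0.017. Cdkn3, a phosphatase acting on cyclin-dependent kinases, was 1.32 higher, while Cdkn1a, the p53-responsive inhibitor, differed by -0.16. Among 17 E2F and DREAM regulators 3 did not overlap. Foxm1, an activator of mitotic genes, had means of 7.29 and 6.51, and E2f8, a repressor among the E2F factors, differed by 1.34.

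**Figure D2:**
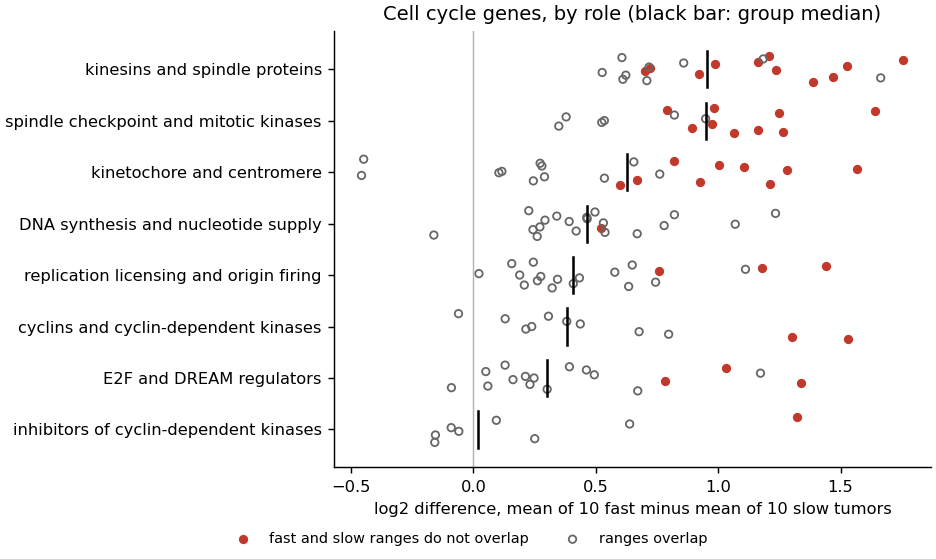
Difference in mean log2 value between fast and slow tumors (x axis) for each gene of 8 roles in the cell cycle, with group medians as black bars and genes with non-overlapping ranges filled. Medians were 0.956 for kinesins and 0.949 for mitotic kinases against 0.408 for licensing genes and 0.017 for inhibitors. The ranking markers are mitotic genes, so this order is not a test.

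Outside the cell cycle list 21716 genes were tested with limma, and 4 passed an adjusted p of 0.05, or 0.0184% of genes, all 4 higher in the fast tumors. They were Ulbp1, Neurl1b, Pole and Dtymk. Pole and Dtymk encode replication enzymes that the list did not hold, so the genes with no textbook role in the cycle were Ulbp1 and Neurl1b. No gene was called lower by limma, while 1179 genes, 5.43%, were lower and 912, 4.20%, higher at an unadjusted p of 0.05. The ranges of fast and slow tumors failed to overlap for 3 genes above, 0.0138%, and for 1 gene below, 0.00460%. Where cell cycle genes were tested together with the others, 178 genes, 0.803%, were called. Of these 150 were on the list, 32.3% of it, and outside the list 18, 0.0829%, were higher and 10, 0.0460%, lower. The listed genes move with the markers that chose the groups, so these counts are not a test. Including them loosened the adjustment for the other genes, whose unadjusted p-values stayed the same. Without tumor 9 limma called 2 genes higher, Ulbp1 and Neurl1b, and 2 lower, Wnt4 and Snord111, 0.00921% each way.

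Ulbp1 had the smallest p-value of the genes tested. It encodes a cell surface ligand of NKG2D, the activating receptor of natural killer and some T cells, and lies at chr10:7444873-7473641. Ulbp1 ranged from 7.53 to 8.33 in the fast tumors with a median of 7.85, from 6.33 to 7.19 in the slow tumors with a median of 6.63, and from 5.70 to 7.04 in the normal livers. Every fast tumor lay above every slow tumor and every normal liver, and tumor 4, the fast tumor with the lowest marker score, had the highest Ulbp1 value. The difference was 1.21 on the log2 scale (SE 0.10), or 2.31-fold (limma, adjusted p = 1.96e-06). Its call was kept in 18 of 19 other settings that tested it, with differences from 0.96 to 1.25 wherever groups were compared. It was lost where each tumor was set against its own normal liver, in 6 fast and 7 slow pairs, at a difference of 1.03 (limma, adjusted p = 0.446). The other settings counted here and for the genes below include the one adjusted together with the cell cycle genes.

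The level of Ulbp1 was also set against the score in arrays that the comparison did not use. Over the 29 normal livers Ulbp1 rose by 0.41 for each unit of the score (SE 0.10, limma adjusted p = 0.0435), one of 197 genes, 0.907%, with a called positive slope. Without normal livers 7 and 19, the ones farthest from the median score, its slope was 0.42 and was not called (limma, adjusted p = 0.175). Genes with a called positive slope then numbered 19. Over the 9 middle tumors the Ulbp1 slope was 0.87 (SE 0.33, limma adjusted p = 0.486), and no gene was called there. Without tumor 9 Ulbp1 differed by 1.21 (limma, adjusted p = 5.05e-06). The T and natural killer cell markers were also higher on average in fast tumors, with a median of 0.346 without tumor 9. Leaving it out therefore does not separate Ulbp1 from them, and the part of immune cell content in Ulbp1 was not tested.

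Neurl1b, an E3 ubiquitin ligase that acts on Notch ligands, lies at chr17:26414859-26446321. It ranged from 7.60 to 8.61 in the fast tumors with a median of 8.08, and from 6.85 to 7.44 in the slow tumors with a median of 7.23. The ranges did not overlap, and the slow mean of 7.19 lay near the normal mean of 7.15. The difference was 0.90 (SE 0.13, limma adjusted p = 0.0108). Neurl1b was called in 14 of 20 other settings. It was not called among male-labelled arrays alone, 8 fast and 4 slow, where it differed by 0.84 (limma, adjusted p = 0.953). Nor was it called with the sex label in the fit (limma, adjusted p = 0.0953). With sex by Xist level in the fit it was called (limma, adjusted p = 0.0218). Without the arrays against their gender label it was called as well (limma, adjusted p = 0.0496). In normal livers its slope on the score was 0.016 (SE 0.068).

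Pole encodes the catalytic subunit of DNA polymerase epsilon, which copies the leading strand. It ranged from 7.86 to 8.88 in fast and from 6.65 to 8.09 in slow tumors, so the ranges overlapped. The difference was 0.96 (SE 0.16, limma adjusted p = 0.0413), and 9 of 19 other settings called it. Dtymk, thymidylate kinase in the supply of dTTP, ranged from 8.60 to 9.16 in fast and from 7.79 to 8.59 in slow tumors without overlap. It differed by 0.64 (SE 0.11, limma adjusted p = 0.0460) and was called in 8 of 19 other settings. With the 14 highest against the 14 lowest tumors the Dtymk difference was 0.40. Normal livers averaged 8.47 for Dtymk, between both tumor groups. Without tumor 9 neither was called, at adjusted p of 0.0546 for Pole and 0.0662 for Dtymk (limma). Without tumor 26, which shares its animal with tumor 22, neither was called, at adjusted p of 0.0895 for both (limma). With the sex label in the fit neither was called either, at adjusted p of 0.275 for both (limma). With sex by Xist level instead, the adjusted p was 0.0584 for Pole and 0.0804 for Dtymk (limma), again not called.

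**Figure D3:**
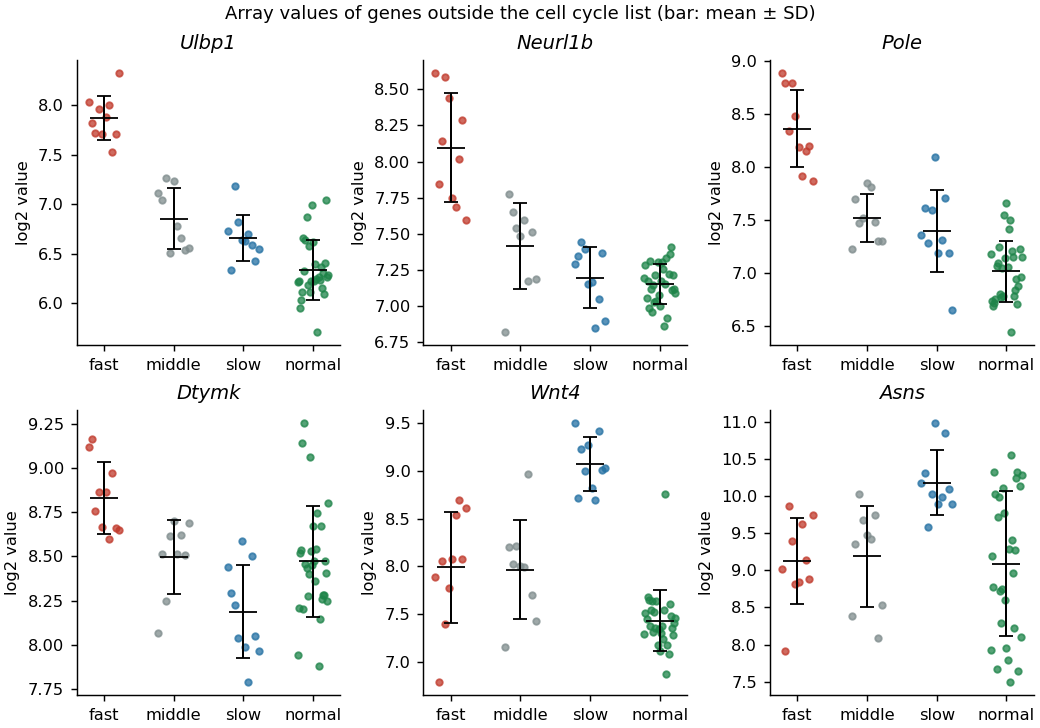
Log2 values (y axis) of 6 genes outside the cell cycle list in fast, middle and slow tumors and normal livers, 1 point per array, with mean and SD. Ulbp1 and Neurl1b in the fast tumors lie above all slow tumors, from 7.53 and 7.60 upward, and Wnt4 in the slow tumors lies above all fast tumors, from 8.70 upward.

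The middle tumors did not enter the comparison of 10 fast with 10 slow tumors, though some of the alternatives used them. They had means between those of fast and slow tumors for all 4 called genes. So they did for 13 of the 15 genes named on the fast side, with the 4 among them, and 12 of 15 on the slow side. In the middle tumors the Ulbp1 mean was 6.85 and the Neurl1b mean 7.41, nearer to the slow than to the fast tumors. Over all 29 tumors, Ulbp1 rose by 0.68 and Neurl1b by 0.54 per unit of the score, a fit that shares the 20 tumors compared above and called 16 genes, 0.0737%, with a positive and 3, 0.0138%, with a negative slope.

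**Figure D4:**
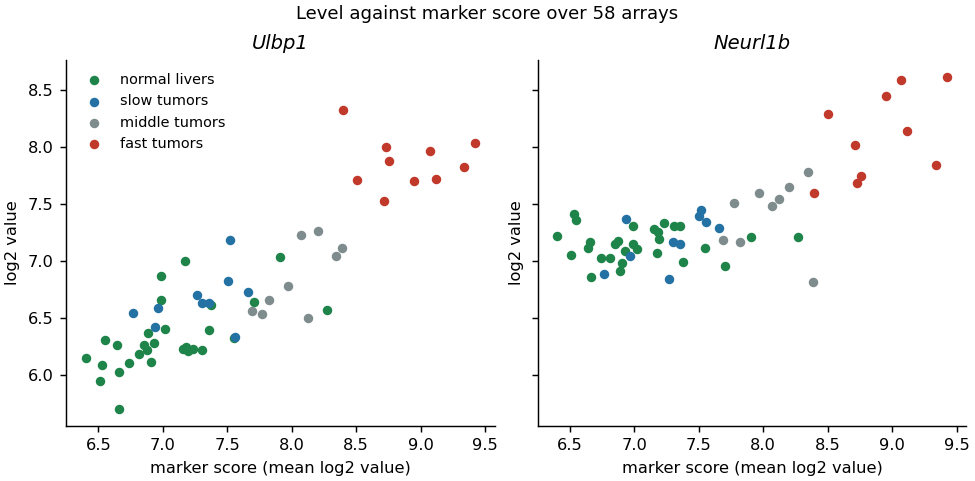
Log2 value of Ulbp1 (left) and Neurl1b (right) against the marker score in 58 arrays, coloured by group. The Ulbp1 points rise with the score in normal livers as well, with a slope of 0.41, while the Neurl1b slope there is 0.016.

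Several genes on the side of the slow tumors had small unadjusted p-values but did not pass the threshold. Wnt4, a secreted Wnt ligand at chr4:137277635-137299501, ranged from 6.79 to 8.69 in fast tumors with a median of 8.07 and from 8.70 to 9.51 in slow tumors with a median of 9.03. These ranges did not overlap, and Wnt4 was the 1 gene of 21716 with fast wholly below slow. The difference was -1.08 (SE 0.20, limma adjusted p = 0.0680). Wnt4 was called in 8 of 20 other settings, among them the one without tumor 9, at -0.95 (limma, adjusted p = 0.0416). With the tumors ranked by Mcm2, Mcm5, Rrm2, Tyms and Pcna it differed by -0.35 (limma, adjusted p = 0.464). The normal mean was 7.43, so the slow tumors were 1.63 above normal liver (limma, SE 0.14) and the fast tumors 0.55 (SE 0.14), against the same normal livers.

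Pmm1, a phosphomannomutase, averaged 8.06 ± 0.80 in fast and 9.59 ± 0.69 in slow tumors (SD, n = 10 each; limma adjusted p = 0.139), and 7.44 in normal livers. Asns, asparagine synthetase, ranged from 7.92 to 9.87 in fast and from 9.58 to 10.99 in slow tumors (difference -1.06, limma adjusted p = 0.147). Id1 and Id3, inhibitors of basic helix-loop-helix factors, differed by -0.76 and -0.97 (limma adjusted p = 0.189 and 0.268). The receptor gene Vldlr differed by -1.22 and the mitochondrial translation gene Ptcd3 by -0.98 (limma adjusted p = 0.298 and 0.334). The small nucleolar RNA genes Snord83b and Snord111 differed by -0.75 and -0.61 (limma adjusted p = 0.126 and 0.334). Snord111 was called without tumor 9 and with array weights. Hectd2, a ubiquitin ligase of the HECT class, differed by -0.84 (limma, adjusted p = 0.0711). None of these 9 passed in the comparison as described. Adjusted together with the cell cycle genes, over the same 20 tumors, Hectd2, Snord83b, Pmm1, Asns, Id1 and Id3 fell under the threshold. Their unadjusted p-values were the same there and only the adjustment was looser, so these are not further support. Hectd2 also passed with array weights. In the fit of all tumors and normal livers with the animal as a random block, Pmm1, Ptcd3, Snord83b and Hectd2 passed. Their adjusted p-values there were 0.000148, 0.0065, 0.0112 and 0.0161 (limma). By the slope on the score over all tumors, Snord83b and Id1 passed (limma, adjusted p = 0.0141 for both). Both fits include the same 20 tumors and are not independent of the comparison. Under the ranking by Mcm2 and the other replication genes the differences were -0.64 for Pmm1, -0.26 for Asns and -0.39 for Vldlr. They were -0.27 for Hectd2, -0.37 for Snord111 and -0.56 for Snord83b. Id1 and Id3 differed by -0.72 and -1.01 there, and Ptcd3 passed at -1.22 (limma, adjusted p = 0.0194).

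Other genes on the side of the fast tumors also had small unadjusted p-values without passing the threshold. Skp2, which directs the inhibitor Cdkn1b to degradation, differed by 0.64 (limma, adjusted p = 0.0711), and Nsd2, a histone H3 methyltransferase, by 0.57 (limma, adjusted p = 0.147). Terf1 and Ctc1, proteins that bind telomeres, differed by 0.81 and 0.49 (limma adjusted p = 0.189 and 0.228). Psmb9, a subunit of the immunoproteasome, differed by 0.86 (limma, adjusted p = 0.149) and Cxcl9, an interferon-induced chemokine, by 1.21 (limma, adjusted p = 0.228). Chp2 differed by 0.45, Rasgrf2, an activator of Ras, by 0.72, and Agap2, a regulator of Arf GTPases, by 0.75. Their adjusted p-values were 0.0711, 0.189 and 0.268 (limma). Skp2 was called in 5 of 19 other settings and Nsd2 and Terf1 in 3 of 20 each. The others named here were called in 1 or 2 settings each.

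Gene lists of liver functions, stress responses and cell types were described by counts, beside the 4.20% of all genes higher and 5.43% lower at an unadjusted p of 0.05. Without tumor 9 these shares were 4.74% and 4.78%. Of all genes 41.7% were above and 58.3% below 0. In all 45 lists no member was called by limma in either direction. In bulk tissue fewer cells of a type and less RNA per cell cannot be told apart.

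Genes of the integrated stress and unfolded protein response were more often below than above 0. Of the 28 genes 19 were below and 9 above 0, 11 were lower and 0 higher at an unadjusted p of 0.05, with a median of -0.322 against -0.032 over all genes. Without tumor 9, 20 were below 0, the count was 7 lower and the median -0.262. Beside Asns, the pseudokinase gene Trib3 averaged 8.24 ± 0.80 in fast and 9.34 ± 0.35 in slow tumors, and the glutathione-degrading enzyme gene Chac1 7.88 ± 0.28 and 8.54 ± 0.45 (SD, n = 10 each). Atf4, the transcription factor at the centre of this response, differed by -0.35, Atf3 by -0.92 and Ddit3, which encodes CHOP, by -0.77. Slc7a11, the cystine importer, ranged from 6.57 to 12.69 in fast and from 10.99 to 12.80 in slow tumors, with a normal mean of 7.92, and its difference of -1.50 became 0.11 with own normal livers subtracted. Of 20 Nrf2 antioxidant targets 19 were below 0 and 4 were lower at an unadjusted p of 0.05, with a median of -0.394. Without tumor 9, 14 were below 0, 3 were lower at that p and the median was -0.187. Gclc, the rate-limiting enzyme of glutathione synthesis, differed by -0.69 and Hmox1, heme oxygenase, by -0.68. Slc7a11 stands on both lists.

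Antigen presentation genes were higher on average in the fast tumors. All 17 were above 0, and 10 were higher at an unadjusted p of 0.05, with a median of 0.401. Without tumor 9 all 17 were still above 0, 9 were higher at that p and the median was 0.294. H2-Ab1, a chain of the class II complex, ranged from 9.44 to 13.13 in fast and from 7.87 to 11.12 in slow tumors (difference 1.55, limma adjusted p = 0.375). Tap1, the peptide transporter of the class I pathway, differed by 0.65, and Psmb9 and Tap2 by 0.86 and 0.46. Of 27 interferon response genes 6 were higher at that p, among them Cxcl9, Isg20 and Gbp3, and 7 without tumor 9, with medians of 0.163 and 0.263.

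Immune cell markers moved with them. The 17 markers of T and natural killer cells were all above 0, with a median of 0.535 and 10 higher at an unadjusted p of 0.05. Without tumor 9, 16 were above 0, 9 were higher at that p and the median was 0.346. Their mean level ran from 6.80 to 9.23 in fast and from 6.60 to 7.17 in slow tumors. Cd3g, a chain of the T cell receptor complex, averaged 8.19 ± 1.87 and 6.59 ± 0.67, and Cd4 7.56 and 6.72 (limma adjusted p = 0.451 and 0.432). The 12 B and plasma cell markers had a median of 0.719, which was 0.346 without tumor 9. Neutrophil markers had a median of -0.102, and -0.100 without tumor 9, with 0 of 13 at an unadjusted p of 0.05 in either direction both times (limma). The part of immune cell content in the antigen presentation values was not tested.

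Matrix genes showed a like order of means. Of 31 collagen and matrix genes 27 were above 0 and 10 were higher at an unadjusted p of 0.05, with a median of 0.430. Without tumor 9 the count was 6 and the median 0.319. Col1a1, the main fibrillar collagen chain, ranged from 8.36 to 11.98 in fast and from 8.12 to 11.59 in slow tumors, and Sparc, a matrix protein, differed by 0.75 (SE 0.25). Stellate cell and fibroblast markers had a median of 0.342, and 0.239 without tumor 9, and their part in the collagen values was not tested. Angiogenic vessel genes had a median of 0.266, with 4 of 19 higher and 1 lower at that p. Without tumor 9 the median was 0.163, with 2 higher and 1 lower.

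Hepatocyte functions gave medians that rested on tumor 9. The 11 hepatocyte markers had a median of -0.316 with 10 below 0, and 0.119 with 10 above 0 once tumor 9 was left out. The median of 39 plasma protein genes went from -0.318 to 0.102 and that of 32 urea cycle and amino acid breakdown genes from -0.232 to 0.183. Drug-metabolising P450 genes had a median of 0.091, with 4 of 42 higher and 3 lower at an unadjusted p of 0.05. Without tumor 9 the median was 0.269, with 11 higher and 2 lower. Cyp7a1, the rate-limiting enzyme of bile acid synthesis, ranged from 5.36 to 11.48 in fast and from 4.90 to 8.48 in slow tumors, with a normal mean of 10.38. The urinary protein gene Mup3 differed by 1.99 (SE 0.86, limma adjusted p = 0.500). With own normal livers subtracted the sign turned for Cyp7a1, at -0.67, and for Mup3, at -1.11. Complement genes had 4 of 19 higher, and 9 without tumor 9, with medians of 0.138 and 0.340. C6, of the membrane attack complex, averaged 9.17 in fast and 7.99 in slow tumors, a difference that also turned there, to -0.35. Of 19 fatty acid synthesis genes 2 were higher, and 6 without tumor 9, with medians of 0.297 and 0.452. The elongase gene Elovl5 differed by 0.64 (limma, adjusted p = 0.461).

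**Figure D5:**
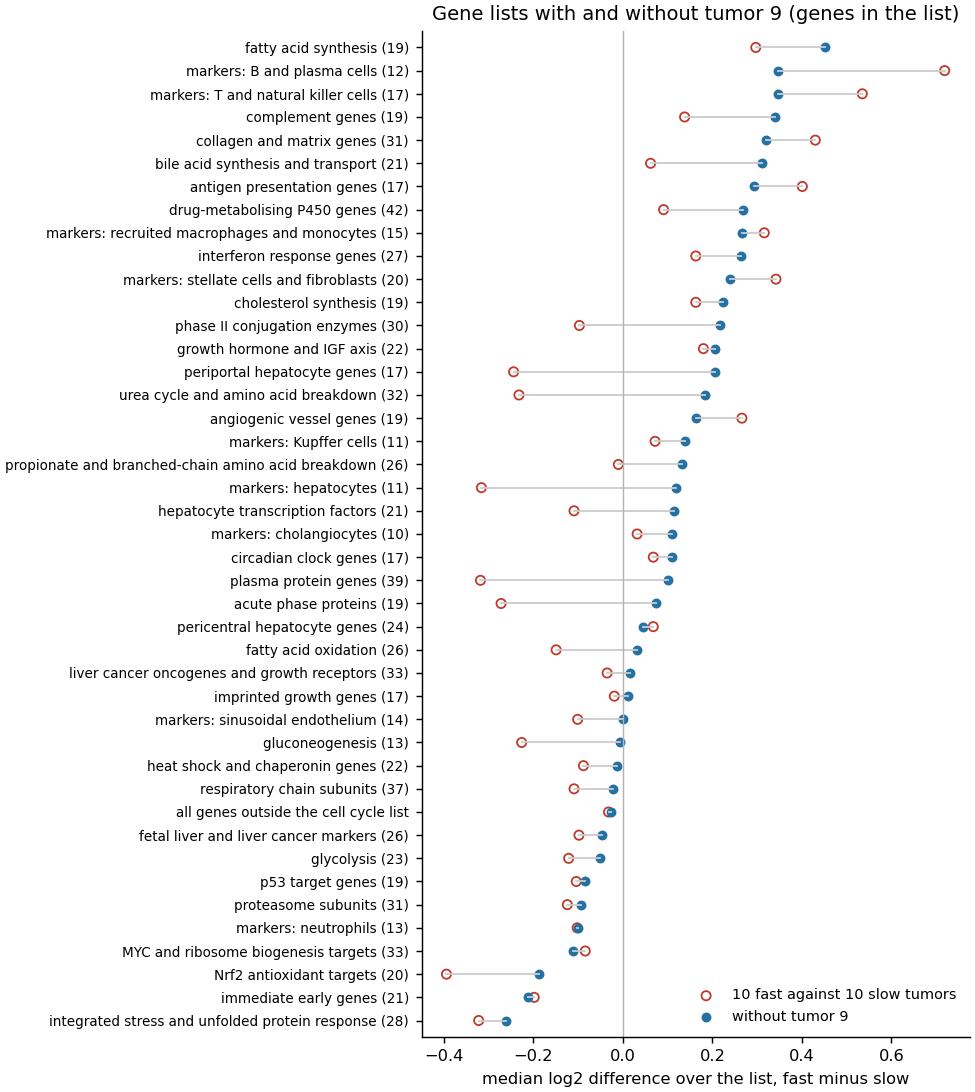
Median log2 difference between fast and slow tumors (x axis) over each list of 10 or more genes, with all 20 tumors (open) and without tumor 9 (filled). Hepatocyte markers go from -0.316 to 0.119 and B and plasma cell markers from 0.719 to 0.346, while the stress response list stays below 0, at -0.322 and -0.262.

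Lists of growth and energy metabolism had small medians. MYC and ribosome biogenesis targets had a median of -0.084 with 4 of 33 above 0, respiratory chain subunits -0.109 with 2 of 37 above 0, and proteasome subunits -0.124 with 4 of 31 above 0. Without tumor 9 the respiratory chain median was -0.021 with 13 above 0, that of MYC targets -0.112 with 5 above 0 and that of proteasome subunits -0.093 with 7 above 0. Myc itself averaged 9.77 ± 0.44 in fast and 10.12 ± 0.42 in slow tumors (SD, n = 10 each; limma adjusted p = 0.543). Gnl3, nucleostemin, differed by -0.49 and Hk2, a hexokinase frequent in tumors, by -0.64, and Hk2 by 0.10 under the other ranking. The p53 target genes had a median of -0.104 and the 21 immediate early genes of -0.198, with 4 lower at an unadjusted p of 0.05, among them Fos and Atf3. Without tumor 9 these medians were -0.084 and -0.211, and 2 immediate early genes were lower at that p.

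Genes known from liver tumors and from the imprinted Dlk1-Dio3 locus had ranges that overlapped between the groups. Afp, the fetal albumin-like protein used as a tumor marker, ranged from 7.33 to 11.56 in fast and from 8.67 to 12.69 in slow tumors (difference -0.75, SE 0.56, limma adjusted p = 0.647). Gpc3 differed by -0.20 and Igf2, a fetal growth factor, by 0.60. Rian, a noncoding RNA of the Dlk1-Dio3 locus, ranged from 6.66 to 12.20 with a median of 11.59 in fast tumors, and from 6.18 to 10 with a median of 8.07 in slow tumors. It differed by 1.97 with an SE of 0.86 (limma, adjusted p = 0.500), and the ranges overlapped. Meg3, of the same locus, differed by -0.13. Cyp11a1, the enzyme that begins steroid synthesis, averaged 11.19 and 10.55 against 6.70 in normal livers, and Slco1b2, a hepatocyte uptake transporter, 7.51 and 6.73 against 11.46. Btc, a ligand of the epidermal growth factor receptor, differed by -0.95 and Mmut, methylmalonyl-CoA mutase, by 0.28. The sign turned under an alternative for Gpc3, Meg3, Cyp11a1 and Mmut in male-labelled arrays, at 0.15, 0.06, -0.32 and -0.58, and for Slco1b2 and Btc under the other ranking, at -0.70 and 0.04.

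Both tumor groups were also set against the 29 normal livers, which they share, with the animal as a random block. With an adjusted p of 0.05 and a change of at least 1, slow tumors had 311 genes higher, 1.43%, and 337 lower, 1.55%, and fast tumors 337 higher, 1.55%, and 287 lower, 1.32% (limma). Neurl1b was 0.94 above normal liver in fast tumors (SE 0.08) and 0.04 in slow tumors (SE 0.08). Ulbp1 was 1.54 above in fast (SE 0.10) and 0.34 in slow tumors (SE 0.10, limma adjusted p = 0.00652). Asns was 1.03 above in slow tumors (SE 0.28) and 0.02 in fast tumors (SE 0.28). The normal livers of animals with fast tumors and those of animals with slow tumors differed in 0 of 22180 genes by limma, with 830, 3.74%, at an unadjusted p of 0.05.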

How the data were processed

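Total RNA of liver was hybridised to Affymetrix whole-transcript arrays, and the authors deposited 1 log2 value for each probe cluster and array. The submitters' processing notes name Affymetrix Expression Console, and its version and summarisation method are not given here. Of 41345 probe clusters 23521 carry 1 gene symbol, 1814 several and 16010 none in the platform annotation. Old symbols were updated through RefSeq. The single-symbol cluster with the highest mean stood for each of 22180 genes. Clusters with several symbols were not used. Values ran from 2.91 to 14.08 and compare a gene between arrays, not genes with each other.

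Fast and slow tumors were compared in R 4.3.3 with limma 3.58.1 (lmFit, eBayes with a trend), without covariates. Benjamini-Hochberg adjustment covered the 21716 genes outside the list of 464 cell cycle genes. The threshold was 0.05. Groups against normal liver were fitted over 58 arrays with the animal as a random block (duplicateCorrelation). Normal livers 26 and 27 carry the same identifier, with the marks +/- and -/-, and were counted as separate animals. The title of normal liver 28 names no animal and shares its leading number, but for the last letter, with tumors 22 and 26. Arrays of different animals share such numbers too, and normal liver 28 was counted as a separate animal. Labels do not say whether tumors of different animals were processed in separate batches. Each tumor array counted as a replicate, although tumors 22 and 26 share an animal, so p-values may be too small. An alternative left out tumor 26. The number of arrays limits the precision.

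Named genes were the 15 largest changes each way among called genes, with places left over filled by the smallest unadjusted p and given as not called, as well as up to 3 called members per list, its member with the largest change, and a fixed set of liver tumor genes. Single members of lists and of the cell cycle groups named beyond this were chosen after their values were seen. The groups, members and lists were chosen with earlier results of these data known. Pole, Dtymk and Skp2 were not on the cell cycle list and were left off it. The fit was run on simulated data with known changes. Those values varied independently between genes and arrays, without an array like tumor 9 or a shared animal. Alternatives were other normalizations, group sizes, rankings, covariates, samples left out, filters and variance models. Promoter windows came from RefSeq, and 8 of 11 genes searched had one. Pole, Hectd2 and Snord83b had none.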

Additional observations from a re-analysis of the deposited data

Results flagged for a closer look

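Single arrays were checked for standing apart from the other 9 of their group, in the named genes with array values and in the marker lists. By Dixon's criterion chance alone picks about 1 in 20 groups. Tumor 9 stood apart among the fast tumors for Psmb9, at 10.04, for Snord111, at 7.33, and for the inhibitor Cdkn1a, at 8.98 below the other fast tumors. It also stood apart for the mean of hepatocyte markers, at 7.38, of T and natural killer cell markers, at 9.23, and of B and plasma cell markers, at 11.20. Tumor 8 was the lowest fast tumor for Cxcl9, at 10.58. Among the slow tumors, tumor 11 was the highest for Rasgrf2, at 6.65, and tumor 10 for B and plasma cell markers, at 7.83.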

How the results depend on the processing

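Outside the cell cycle list 4 genes were higher and 0 lower in fast tumors. The number higher was 2 with each array centred on its median, 1 with the 7 highest against the 7 lowest tumors and 1 with 14 against 14. It was 1 with the sex label as covariate, 1 in male-labelled arrays only, 2 without arrays against their gender label, 2 without tumor 9 and 2 without tumor 26. In each of these Ulbp1 was among the genes called. Ranking by Mcm2, Mcm5, Rrm2, Tyms and Pcna, which kept 8 of the 10 fast and 7 of the 10 slow tumors and put 1 slow tumor among the fast, gave 37 higher and 12 lower. The slope over all 29 tumors gave 16 higher and 3 lower, and all 58 arrays in 4 groups with the animal as random block gave 69 higher and 23 lower. Of those 92 genes 22 were microRNA genes, whose smallest adjusted p over the 20 tumors was 0.360. The number lower was 1 with quantile normalization, 2 without tumor 9, 3 with array weights and 1 among brighter genes. It was 1 with a covariate for whether the animal had a normal liver array, which does not use the values of that liver. Wnt4 was among the genes called lower in each of these.

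In the paired analysis, tumor minus own normal liver, where each animal is its own block, 0 genes were higher and 0 lower (limma), and Ulbp1 differed by 1.03. Fewer arrays entered it, 6 fast and 7 slow. Chosen after seeing the data, the cell cycle list with Pole, Dtymk and Skp2 added left 2 higher, testing all genes together gave 18 higher and 10 lower, and sex by Xist level as covariate gave 2 higher. The 18 and 10 rest on the looser adjustment that the cell cycle genes bring, which move with the ranking markers. Normal livers grouped by 14 against 14 tumors differed in 1 gene. Counts of slow and fast tumors against normal livers stayed within 1.5 times of the values given. None of the 4 called genes changed sign. Of the 78 named genes 21 changed sign in at least 1 setting, 12 of them with own normal livers subtracted, 7 in male-labelled arrays and 4 under the other ranking, and none of these 21 was called. Among named genes, 84 of 1543 calls changed across settings, and 17 of 1800 list counts changed. Most named genes and all lists held no call to lose, so these shares do not measure stability. Of the 4 called genes, Ulbp1 kept its call in 18 of 19 other settings and Neurl1b in 14 of 20. Pole kept its call in 9 of 19 and Dtymk in 8 of 19. The cause of these differences was not tested.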

Other observations

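For several genes the middle tumors were not between the fast and the slow tumors but nearer to normal liver than both. These genes were picked after their values were seen, and the difference of the middle tumors from the others was not tested. Slco1b2 averaged 9.87 in the 9 middle tumors, against 7.51 in fast and 6.73 in slow tumors and 11.46 in normal livers. Nr1i3, the xenobiotic receptor CAR, averaged 9.86 in middle tumors, 7.75 in fast, 8.20 in slow and 11.35 in normal livers. Cyp11a1 averaged 8.93 in middle tumors, 11.19 in fast, 10.55 in slow and 6.70 in normal livers. For Ccnd1 too the middle mean was the nearest to normal liver, with 10.10 in middle tumors, 9.41 in fast, 8.62 in slow and 10.26 in normal livers.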
